A study of Mus musculus with 20 samples.

Results

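The sinoatrial node (SA) was compared with bulk tissue of the right atrium (RA) next to it. The comparison used 4 SA and 4 RA arrays out of the 20 arrays of 5 heart regions in the series. All 8 samples came from male C57/BL6 mice of 5 to 10 weeks with no treatment and no transgene. SA was cut out in a dissection of its own, bordered by the superior vena cava, the septum between the atria, the crista terminalis and the RA, and each SA sample pooled several mice, so that region, dissection and pooling cannot be told apart. Fat and nerve around the heart had been removed before the regions were cut out. Total RNA was hybridised to Illumina MouseRef-8 v2 BeadChips, and the deposited values are z-scores, each probe's distance from the mean of its own array in units of that array's SD. Each gene was read from its brightest probe, and genes with a z-score above 0 on at least 1 of the 8 arrays were tested, which kept 7310 of 16593 genes. Differences below are SA minus RA in z-score units, with the standard error (SE) and the Benjamini-Hochberg adjusted p of limma. They are not fold changes, since the scale of the signal behind the z-scores was not given in the sources used here.

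The sinoatrial node is the small strip of specialised muscle, laced with connective tissue, nerves and a central artery, in which each heartbeat starts. Its cells depolarise spontaneously through hyperpolarisation-activated and calcium currents, and during development they are kept apart from working atrial muscle by a repressive programme that includes Shox2, Isl1 and Tbx3. Working atrial cells use Nkx2-5 and related factors, fast-conducting connexins and natriuretic peptides, while Tbx5 acts in both node and atrial muscle.

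Regions separated clearly. The Spearman correlation across the tested genes lay between 0.97 and 0.987 for pairs of SA arrays and between 0.976 and 0.992 for pairs of RA arrays, and between 0.933 and 0.958 for the 16 pairs that joined an SA with an RA array. At an adjusted p below 0.05, 1213 genes differed, 16.6% of those tested. Of these, 608 (8.32%) were higher in SA and 605 (8.28%) were lower. Every count of list members below is to be read beside these shares, also where they are not repeated. The median difference over all tested genes was 0.01; each array is centred on its own mean, so that a shift of a whole region cannot be seen. The differences were mostly small: 171 of the higher and 121 of the lower genes exceeded 0.5, and 37 and 14 exceeded 1. All 4 SA arrays lay above all 4 RA arrays for 805 genes (11% of those tested) and below them for 770 (10.5%), so that the arrays of the regions did not overlap for 21.5%. A gene can pass the filter through a single region, and then its difference is partly built in. This was so for 413 genes that exceeded 0 in SA alone, of which 155 were called higher, and for 232 that did so in RA alone, of which 98 were called lower. Among called genes named below, those above 0 in RA alone include *Cgnl1*, *Comp*, *Drd2*, *Fabp5*, *Irx3*, *Kcnd2*, *Kcnip2*, *Mal*, *Mitf*, *Slit2* and *Uts2b*. Those above 0 in SA alone include *Actg2*, *Adig*, *Aqp7*, *Atf3*, *Cidec*, *Cyp2b10*, *Gfra3*, *Inhba*, *Lep*, *Lmod1*, *Mup2* and *Myh11*. They also include *Plin1*, *Rspo3*, *Tagln*, *Tenm4*, *Tesc*, *Tmc7*, *Tmem45b* and *Ucp1*. Further ones are marked where they appear. The 181 genes whose highest value lay within 0.05 above the filter had a median difference of 0.02, and the 173 just below it had one of -0.01.

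**Figure D1:**
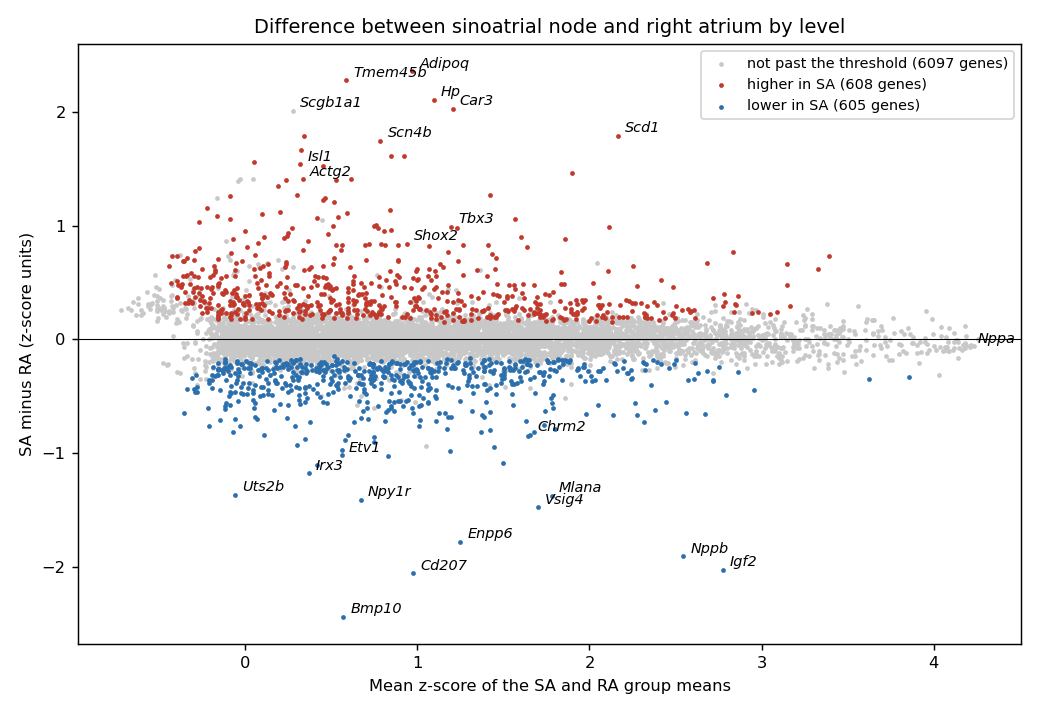
Difference between SA and RA in z-score units (vertical axis) against the mean of both group means (horizontal axis) for the 7310 tested genes. Red points are the 608 genes higher in SA and blue points the 605 lower ones at an adjusted p below 0.05 (limma), grey points the others; *Adipoq* lies at the top with 2.36 and *Bmp10* at the bottom with -2.44, while *Scgb1a1*, also high in the plot, is grey.

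These counts changed most with the arrays that entered the estimate of spread and with the scaling. Leaving out each array in turn gave 907 to 1206 calls, whereas a fit of all 20 arrays gave 166, and a fit of 19 arrays without left ventricle replicate 4 gave 1366. The brightest probe of that left ventricular array reached 8.44, against 3.74 to 5.15 on the other 19. Adjusted p-values given below for the fit of all 20 arrays include that array, which is not part of the comparison. Scaling each array by its median and its median absolute deviation (MAD) in place of the deposited z-score left 419 calls. Of 104 named genes tested, 56 lost their call in the fit of all 20 arrays, 7 in that of 19 and 30 under MAD scaling, and none changed direction under any alternative. Those that lost it under MAD scaling were *Acta2*, *Atf3*, *C1qb*, *C1qc*, *Cpt2*, *Dkk3*, *Gja5*, *Gjd3*, *Gsn*, *Hspa1a*, *Id2*, *Igfbp4*, *Kcnj12*, *Myl3*, *Mylk3*, *Nrp1*, *Nrtn*, *Pecam1*, *Pgam2*, *Pi16*, *Ppargc1a*, *Rgs6*, *Rpl3l*, *Rspo3*, *Sfrp1*, *Sfrp2*, *Slc25a20*, *Tcf21*, *Tpm1* and *Ucp1*. All of these except *Ucp1* lost it in the fit of all 20 arrays too, and so did *Aqp7*, *Chrm2*, *Cidea*, *Clec3b*, *Cytl1*, *Emcn*, *Eng*, *Etv1*, *Gpm6a*, *Gpnmb*, *Gpr22*, *Hcn2*, *Hey1*, *Igfbp3*, *Irx3*, *Kcnd2*, *Mitf*, *Mylk*, *Nppb*, *Npr3*, *Pvalb*, *Scn4b*, *Slit2*, *Smad6*, *Tbx3*, *Tmem108* and *Unc5b*.

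The node's transcription factors were the first check of the labels. *Isl1*, a LIM-homeodomain factor of the pacemaker lineage, read 1.38, 1.08, 1.09 and 0.83 on the SA arrays and -0.33, -0.52, -0.42 and -0.52 on the RA arrays. It was higher in SA by 1.54 ± 0.10 (SE, n = 4 and 4; adjusted p = 4.43e-06). *Shox2*, the homeobox factor that represses the working-muscle programme in the node, read 1.22, 1.39, 1.40 and 1.42 in SA and 0.51, 0.55, 0.52 and 0.51 in RA. The difference was 0.84 ± 0.06 (adjusted p = 4.43e-06), and RA stood above the left atrium, where *Shox2* averaged -0.32 ± 0.06 (SD, n = 4). *Tbx3*, a T-box repressor of the conduction system, read 1.70, 1.60, 1.81 and 1.65 in SA and 0.72, 0.75, 0.78 and 0.54 in RA, a difference of 0.99 ± 0.07 (adjusted p = 5.56e-06, and 0.212 in the fit of all 20 arrays). For all 3 factors every SA array lay above every RA array. *Isl1* exceeded 0 in SA alone, whereas *Shox2* and *Tbx3* were above 0 on every RA array too. In bulk samples like these, fewer cells of a type and less RNA per cell cannot be told apart, for these factors and for every gene that follows. *Hcn4*, the main pacemaker channel gene, was not analysed here.

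The remaining members of the study's 6 transcription factors did not pass the test or the filter. *Tbx5*, a T-box factor of both node and atrial muscle, read 0.30, 0.59, 0.73 and 0.56 in SA and 0.76, 0.74, 0.70 and 0.77 in RA. Its difference of -0.20 ± 0.08 had an adjusted p of 0.128, which became 0.0492 without SA replicate 3. By quantitative PCR in mice the study instead reported *Tbx5* mainly in SA, also when set against RA. With the same assay it reported *Isl1*, *Shox2* and *Tbx3* mainly in SA, and no significant difference for *Hoxa2*. *Tbx18*, required for the head of the node, stayed below 0 on all 8 arrays and was not tested; it read -0.37 to -0.08 in SA and -0.54 to -0.32 in RA, ranges that overlap. *Hoxa2* stayed below 0 as well, with -0.48 to -0.27 in SA and -0.76 to -0.67 in RA, ranges that do not. The study took an interest in these factors and showed them with SA arrays that include the present ones, so that the 3 calls among the 4 tested members are not independent evidence of their direction.

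**Figure D2:**
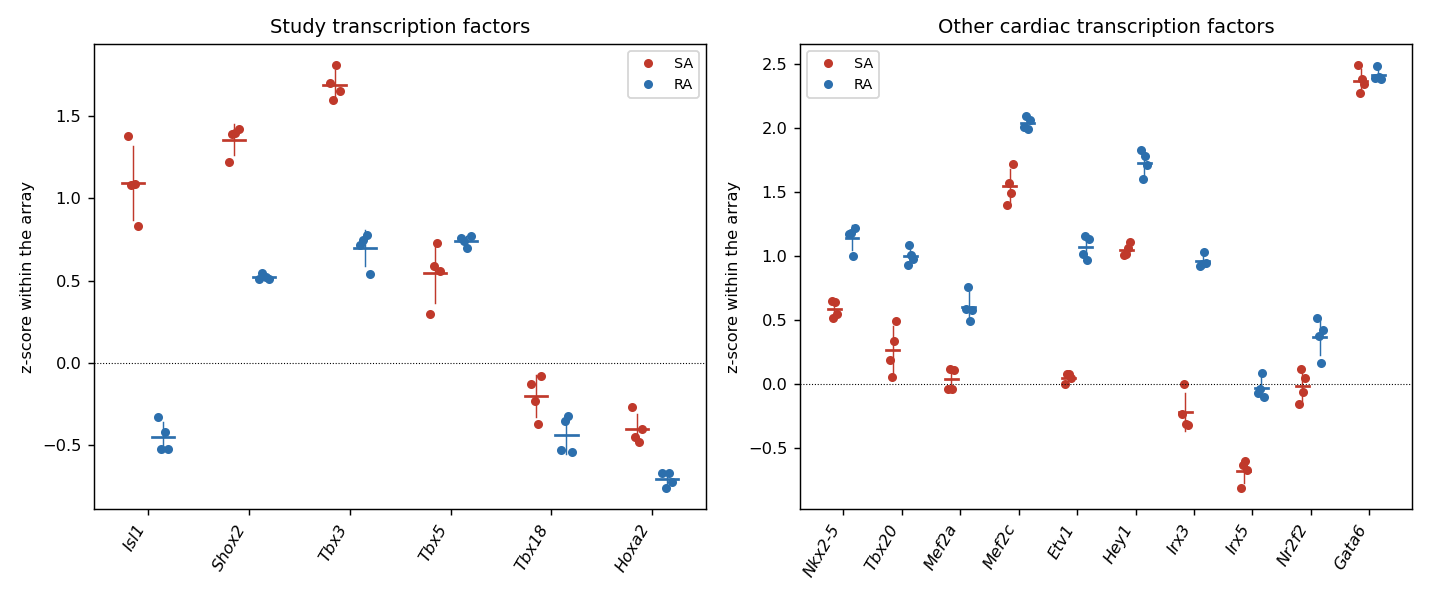
z-scores within the array of 6 transcription factors of interest in the study (left) and 10 other cardiac factors (right); each point is an array (4 SA in red, 4 RA in blue), short horizontal lines are group means and vertical lines 1 SD. *Isl1*, *Shox2* and *Tbx3* lie higher in SA on every array, *Nkx2-5*, *Tbx20*, *Mef2a*, *Mef2c*, *Etv1*, *Hey1*, *Irx3*, *Irx5* and *Nr2f2* lie lower, and *Gata6* overlaps; *Tbx18* and *Hoxa2* were below the filter.

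Of 18 other cardiac transcription factors tested, 11 were lower in SA and none was higher (against 8.28% and 8.32% of all genes). Their median difference was -0.38. The sharpest were *Irx3* and *Etv1*, which are both known for fast conduction. *Irx3* read -0.23, 0.00, -0.31 and -0.32 in SA and 0.92, 0.94, 1.03 and 0.95 in RA (difference -1.18 ± 0.07, adjusted p = 2.78e-06). *Etv1* read 0.00, 0.08, 0.08 and 0.05 in SA and 1.02, 1.16, 0.97 and 1.13 in RA (difference -1.02 ± 0.06, adjusted p = 1.47e-06). No SA array reached the level of any RA array for either gene. *Irx3* exceeded 0 in RA alone, so that its difference is partly built in. *Irx5*, a relative of *Irx3*, was lower by 0.65 ± 0.06 and exceeded 0 on 1 RA array only.

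Core factors of the working muscle moved with them. *Nkx2-5*, the homeobox factor of the muscle lineage, read 0.65, 0.52, 0.64 and 0.55 in SA and 1.17, 1.18, 1 and 1.22 in RA (difference -0.55 ± 0.06, adjusted p = 0.000153). *Tbx20*, a T-box factor of chamber muscle, differed by -0.73 ± 0.09, and *Hey1*, a target of Notch signalling in atrial muscle, by -0.68 ± 0.06. *Mef2a* and *Mef2c*, activators of contractile genes, differed by -0.57 ± 0.07 and -0.49 ± 0.07. *Nr2f2*, which sets atrial identity, differed by -0.38 ± 0.08, and the chromatin subunit *Smarcd3* by -0.35 ± 0.05. *Gata6* read 2.27 to 2.49 in SA and 2.38 to 2.48 in RA and did not pass (adjusted p = 0.669). In the fit of all 20 arrays 1 of the 11 calls remained, with *Irx3* at an adjusted p of 0.146 and *Etv1* at 0.0779; without any 1 of the 8 arrays there were 11 again.

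The natriuretic peptide genes *Nppb* and *Nppa* behaved differently, although they are neighbours on chromosome 4. *Nppb*, which encodes B-type natriuretic peptide, read 1.35, 1.42, 1.99 and 1.62 in SA and 3.35, 3.32, 3.91 and 3.43 in RA. It was lower in SA by 1.91 ± 0.16 (adjusted p = 2.22e-05, and 0.0808 in the fit of all 20 arrays), and the left atrium averaged 3.42 ± 0.36. *Nppa*, which encodes atrial natriuretic peptide, read 3.54, 4.47, 4.55 and 4.16 in SA and 4.49, 4.04, 4.18 and 4.27 in RA, and the regions overlapped (difference -0.06 ± 0.19, adjusted p = 0.855). On every one of the 8 arrays *Nppa* lay within 0.25 of the highest value of that array, so that a difference at the top of the scale may not be measurable here. *Sln*, *Myl7* and *Mybphl*, which encode sarcolipin, the atrial regulatory light chain and an atrial myosin-binding protein, lay as near to the ceiling, with at most 0.33 to it, and overlapped between regions too.

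The promoters of these neighbours and of *Bmp10*, the gene that was lowest in SA relative to RA, are shown because the neighbours gave different results and T-box and GATA factors act in this tissue. The sequences are the 250 bases before the start on the plus strand, from RefSeq (GRCm38.p6); capitals mark the T-box half-site TCACACCT and the GATA sites AGATAA or TGATAA, searched on both strands. Positions count from the start that the promoter table uses; the gene record of *Nppb* begins upstream of it, so that this window overlaps the annotated gene in part. The regions are chr4:148000472-148000721 for *Nppa*, chr4:147985650-147985899 for *Nppb* and chr6:87428744-87428993 for *Bmp10*.
Nppa: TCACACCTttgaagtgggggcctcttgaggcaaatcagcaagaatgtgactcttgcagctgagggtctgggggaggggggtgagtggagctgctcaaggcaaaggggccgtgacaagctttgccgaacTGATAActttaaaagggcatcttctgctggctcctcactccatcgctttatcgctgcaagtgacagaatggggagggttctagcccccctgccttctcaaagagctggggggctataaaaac
Nppb: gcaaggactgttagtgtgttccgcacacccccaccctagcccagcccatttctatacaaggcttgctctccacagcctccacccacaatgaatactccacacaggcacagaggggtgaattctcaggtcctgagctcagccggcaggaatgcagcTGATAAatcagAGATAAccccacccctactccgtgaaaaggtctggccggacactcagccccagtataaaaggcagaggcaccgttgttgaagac
Bmp10: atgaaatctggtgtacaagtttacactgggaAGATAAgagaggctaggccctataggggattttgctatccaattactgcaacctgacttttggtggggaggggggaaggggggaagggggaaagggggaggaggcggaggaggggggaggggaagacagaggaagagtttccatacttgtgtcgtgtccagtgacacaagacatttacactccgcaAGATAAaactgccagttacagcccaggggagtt

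The *Nppa* promoter held the T-box half-site at its first bases, -250 to -243, and a GATA site at -122 to -117. *Nppb* had no match to the T-box half-site in this window and held a pair of GATA sites, at -95 to -90 and -84 to -79. *Bmp10* held GATA sites at -219 to -214 and -33 to -28. Over 27025 genes with a promoter in the table, the T-box half-site was present in 1.3% and a GATA site in 18.8%. Among 13 atrial muscle genes, 2 (*Nppa* and *Dhrs9*) held the T-box half-site and 7 a GATA site, and among 13 white adipocyte genes 3 held the one and 3 the other. These matches describe the letters and do not show binding.

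Over the whole list of atrial muscle genes, 4 of 14 tested were lower and none was higher in SA (8.28% and 8.32% of all tested genes). The median was -0.09. The 4 were *Bmp10*, *Nppb*, *Gja5* and *Dkk3*. *Dkk3*, a secreted protein related to WNT inhibitors, read 3.18 to 3.54 in SA and 3.65 to 3.89 in RA (difference -0.35 ± 0.09, adjusted p = 0.022); it missed the threshold without RA replicate 1 (0.0642) or RA replicate 4 (0.0682) and under MAD scaling (0.754). Of the 15 members on the array, 13 were above 0 on all SA arrays and 14 on all RA arrays.

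Among ion channels, the largest difference was in a sodium channel subunit. *Scn4b*, which encodes the beta 4 subunit that modulates cardiac sodium current, read 1.57, 1.69, 1.66 and 1.70 in SA and 0.13, -0.32, -0.14 and -0.03 in RA. It was higher in SA by 1.75 ± 0.09 (adjusted p = 7.41e-07, and 0.0514 in the fit of all 20 arrays), with the left atrium between them at 0.86 ± 0.12. RA was its lowest region, since *Scn4b* averaged 0.18 in the left and 1.31 in the right ventricle. Of 13 genes tested from a list of working-muscle channels, which also holds connexins, *Scn4b* was the 1 higher and 4 were lower (8.32% and 8.28% of all tested genes). The median was 0.

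*Gja5*, the gap junction protein of fast-conducting atrial muscle, read 1.20, 1.39, 1.54 and 1.32 in SA and 2.28, 2.13, 1.69 and 2.35 in RA. The difference was -0.75 ± 0.13 (adjusted p = 0.00292, but 0.0785 in the fit of all 20 arrays and 0.0955 under MAD scaling). *Kcnd2* and *Kcnip2*, a pore subunit and its partner in the transient outward current, differed by -0.46 ± 0.08 and -0.26 ± 0.06, both at low signal. *Kcnj12*, of the inward rectifier that holds the resting potential, differed by -0.27 ± 0.07 and missed the threshold without RA replicate 1 (0.0591) or RA replicate 2 (0.0594). *Gja1*, the widespread working connexin, overlapped at 3.11 to 3.42 in SA and 3.11 to 3.43 in RA (adjusted p = 0.986).

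Of 10 genes tested from a list of pacemaker channels and related genes, 5 were higher in SA and none was lower (8.32% and 8.28% of all tested genes). The median was 0.19, and the list also holds connexins and regulators that are not channels. *Hcn2*, a hyperpolarisation-activated channel, read 0.89, 0.83, 1.01 and 0.76 in SA and 0.38, 0.40, 0.31 and 0.45 in RA (difference 0.49 ± 0.06, adjusted p = 0.00039, and 0.874 in the fit of all 20 arrays). It was not particular to SA, with means of 1.08 in the left and 0.77 in the right ventricle. *Cacna1g*, the T-type calcium channel alpha 1G, read 0.58, 0.54, 0.61 and 0.39 in SA and 0.03, 0.13, 0.01 and 0.03 in RA (difference 0.48 ± 0.06, adjusted p = 0.000338). *Rgs6*, which shortens muscarinic signals to the potassium channel, differed by 0.22 ± 0.05, *Popdc3* by 0.16 ± 0.05 and *Gjd3*, a low-conductance connexin of the conduction system that exceeded 0 in SA alone, by 0.23 ± 0.06. The last 3 differences were small, and the count of 5 fell to 3 without SA replicate 3 and without RA replicate 2. *Popdc3* averaged 1.39 in the left atrium against 1.35 in SA, whereas *Cacna1g* averaged below 0 in the left atrium and both ventricles. *Gjc1*, another node connexin, overlapped (adjusted p = 0.902), and *Kcnj3*, a subunit of the acetylcholine-gated potassium channel, read 0.61 to 0.84 in SA and 0.84 to 1.24 in RA (adjusted p = 0.0535). *Cacna1d*, *Hcn3*, *Kcnj5* and *Trpm4* stayed below the filter.

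Genes of autonomic receptors and signalling were lower in SA in 5 of 11 tested and higher in 1, with a median of -0.25 (8.28% and 8.32% of all tested genes). *Npy1r*, a receptor of neuropeptide Y, read 0.05, -0.15, -0.02 and -0.02 in SA and 1.16, 1.59, 1.19 and 1.55 in RA (difference -1.41 ± 0.10, adjusted p = 8.4e-06). *Chrm2*, the muscarinic receptor through which the vagus slows the heart, read 1.05, 1.42, 1.31 and 1.16 in SA and 2.05, 2.26, 1.76 and 2.25 in RA. The difference was -0.84 ± 0.12 (adjusted p = 0.000641, and 0.309 in the fit of all 20 arrays), and no array of the node reached the lowest of the atrium. The dopamine receptor *Drd2* (-0.76 ± 0.08), the adenylyl cyclase *Adcy1* (-0.50 ± 0.09) and the inhibitory G protein *Gnai2* (-0.25 ± 0.08, with overlapping arrays) were lower too. *Rgs4*, a regulator that ends G protein signals and is known from the node, was the exception. It read 0.76 to 0.91 in SA and 0.34 to 0.51 in RA (difference 0.43 ± 0.06, adjusted p = 0.000478).

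On all 8 arrays few contractile, calcium-handling and energy genes passed, at shares near or below the 8.32% of all tested genes called higher. Several of them lie at the top of the scale, where a difference may not be measurable. *Atp2a2*, *Actc1* and *Tnnc1* lay within 0.24, 0.18 and 0.29 of the highest value on every array. None of 10 calcium cycling genes, none of 17 oxidative phosphorylation genes and none of 6 creatine kinase and myoglobin genes passed (limma; 2218 of all 7310 genes had an unadjusted p below 0.05). Among 16 sarcomere and sarcolemma genes *Tpm1*, a tropomyosin, was the 1 that was higher (0.36 ± 0.09), and it missed the threshold without RA replicate 1, 2 or 4 (0.0529 to 0.0605). In glycolysis 1 of 14 was higher, *Pgam2*, the muscle phosphoglycerate mutase (0.62 ± 0.13, with overlapping arrays and an adjusted p of 0.457 under MAD scaling). Of 16 fatty acid oxidation genes *Cpt2* and *Slc25a20*, both of the carnitine shuttle, were higher by 0.30 ± 0.05 and 0.24 ± 0.06. The brightest muscle genes read lower on SA replicate 1 (*Nppa* 3.54 and a highest probe of 3.79), and their part in these counts was not tested otherwise. Without that array 4 of 16 fatty acid oxidation genes, 3 of 14 glycolysis genes, 3 of 16 sarcomere genes, 2 of 17 oxidative phosphorylation genes and 1 of 6 creatine kinase and myoglobin genes were higher.

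Genes named for ventricular muscle went both ways, with 3 of 10 higher and 3 lower (8.32% and 8.28% of all tested genes). *Gpr22*, an orphan receptor, read 1.27, 0.88, 1.21 and 1.08 in SA and 0.28, 0.36, 0.24 and 0.25 in RA (difference 0.83 ± 0.08, adjusted p = 6.85e-05). *Rpl3l*, the muscle form of a ribosomal protein, was higher by 0.52 ± 0.08 and *Tesc* by 0.23 ± 0.06, whereas the light chain *Myl3* (-0.62 ± 0.09), the kinase *Mylk3* (-0.55 ± 0.11) and *Kcnip2* were lower. *Myl2*, the ventricular regulatory light chain, read 2.20 on RA replicate 2 and 0.54 to 0.94 on the other 7 arrays (adjusted p = 0.215). Of 6 fast skeletal muscle genes, the troponin *Tnni2* was higher (0.56 ± 0.07) and the calcium buffer *Pvalb* lower (-0.39 ± 0.08).

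*Bmp10*, a ligand of the bone morphogenetic protein (BMP) family made by right atrial muscle, had the largest deficit in the node among genes past the threshold. It read -0.67, -0.66, -0.60 and -0.68 in SA and 1.67, 1.94, 1.91 and 1.64 in RA. The difference was -2.44 ± 0.07 (adjusted p = 2.4e-08), and SA stood at the level of the left atrium (-0.67 ± 0.04) and of the ventricles (means of -0.58 and -0.62). *Bmp10* exceeded 0 in RA alone, which makes its place among the tested genes depend on RA.

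Of 13 BMP and TGF-beta genes tested 6 were lower, *Bmp10* among them, and 2 higher, with a median of -0.13 (8.28% and 8.32% of all tested genes). *Smad6*, an inhibitory SMAD, read 0.99, 0.83, 0.68 and 0.69 in SA and 1.49, 1.26, 1.59 and 1.47 in RA (difference -0.65 ± 0.09, adjusted p = 0.00051). The inhibitors of differentiation *Id2* (-0.44 ± 0.10), *Id3* (-0.36 ± 0.08) and *Id1* (-0.31 ± 0.09) were lower with adjusted p from 0.0147 to 0.0372, and endoglin (*Eng*), a co-receptor on endothelial cells, was lower by 0.85 ± 0.07. *Bmp4* (0.37 ± 0.08) and *Inhba* (0.32 ± 0.06) were higher. *Eng*, *Smad6* and the *Id* genes are also transcribed by endothelial cells (7 of 12 blood endothelial markers were lower in SA), and the part of these cells in the result was not tested.

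Insulin-like growth factor 2 (*Igf2*) was lower in SA at a high signal in both regions. It read 1.78, 1.71, 1.80 and 1.74 in SA and 3.89, 3.68, 3.85 and 3.72 in RA (difference -2.03 ± 0.06, adjusted p = 2.4e-08), with 3.04 ± 0.13 in the left atrium. The binding proteins *Igfbp3* (-0.76 ± 0.15) and *Igfbp4* (-0.21 ± 0.06) were lower too, 3 of 9 IGF genes in all and none higher (8.28% and 8.32% of all tested genes). *Igfbp4* did not hold without any 1 of 6 arrays (adjusted p 0.0541 to 0.0994), and RA replicate 3 was the lowest RA array for *Igfbp3* at 0.92.

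Vasoactive peptides and their receptors were lower in 5 of 11 tested and higher in 1 (8.28% and 8.32% of all tested genes). *Uts2b*, a peptide related to urotensin, read -0.76, -0.79, -0.66 and -0.77 in SA and 0.59, 0.62, 0.98 and 0.30 in RA (difference -1.37 ± 0.12, adjusted p = 2.89e-05), and it was highest in the left atrium (1.46 ± 0.30). *Npr3*, the clearance receptor for natriuretic peptides, was lower by 0.95 ± 0.06, adrenomedullin (*Adm*) by 0.84 ± 0.12 and the endothelin receptor *Ednrb* by 0.35 ± 0.06. *Agtr1a*, an angiotensin II receptor, went the other way with 1.63, 1.37, 1.59 and 1.67 in SA and 0.74, 0.88, 0.68 and 0.88 in RA (difference 0.77 ± 0.08, adjusted p = 7.54e-05).

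The largest excess in SA was that of *Adipoq*, and *Car3* and *Cidec*, also of fat cells, were among the 14 largest. *Adipoq*, the adipocyte hormone adiponectin, read 2.31, 2.29, 1.79 and 2.20 in SA and -0.04, -0.32, -0.52 and 0.05 in RA (difference 2.36 ± 0.14, adjusted p = 2.55e-06). *Car3*, a carbonic anhydrase abundant in fat, read 2.41, 2.40, 2.10 and 1.98 in SA and 0.40, 0.04, -0.32 and 0.65 in RA (2.03 ± 0.19, adjusted p = 4.76e-05). *Cidec*, a lipid droplet protein, read 1.36, 1.44, 0.85 and 1.29 in SA and -0.40, -0.66, -0.71 and -0.46 in RA (1.79 ± 0.12, adjusted p = 5.56e-06). SA replicate 3 was the lowest node array for *Adipoq* and *Cidec* and still lay far above the atrium.

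Of 11 white adipocyte genes tested, 8 were higher and none was lower (8.32% and 8.28% of all tested genes), with a median of 0.59. The mean over the list was 1.73 to 1.93 on the SA arrays and 0.88 to 1.01 on the RA arrays. The other 5 were the glycerol channel *Aqp7* (0.85 ± 0.07), the droplet coat protein *Plin1* (0.73 ± 0.08), leptin (*Lep*, 0.59 ± 0.09), the fat cell regulator *Pparg* (0.44 ± 0.07) and *Dgat2* (0.36 ± 0.07), which makes triglycerides. Of the 8, 4 exceeded 0 in SA and not in RA. One of these, *Aqp7*, averaged 0.50 in SA, 0.50 in the left and 0.78 in the right ventricle. *Adipoq*, *Car3* and *Cidec* averaged below 0 in both ventricles. *Lpl*, *Plin4* and *Pnpla2*, which heart muscle also transcribes, did not pass, and *Cebpa*, *Fabp4*, *Lipe*, *Pck1* and *Retn* stayed below the filter. The count was 8 or 9 without any 1 array. None of the 13 members with a promoter in the RefSeq table held the PPAR direct repeat (DR1, searched on both strands) in the 250 bases before the start, against 0.0407% of all promoters.

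Fatty acid synthesis genes were higher in 9 of 11 tested and lower in none, and all 11 had every SA array above every RA array. The shares over all tested genes were 8.32%, 8.28% and 11%. *Scd1*, the stearoyl-CoA desaturase, read 2.95, 3.33, 2.78 and 3.20 in SA and 1.27, 1.21, 1.21 and 1.41 in RA (difference 1.79 ± 0.11, adjusted p = 2.56e-06). *Acaca*, acetyl-CoA carboxylase, the committed step, read 2.15, 2.10, 1.95 and 2.21 in SA and 0.95, 1.08, 1.07 and 1.07 in RA (1.06 ± 0.06, adjusted p = 2.56e-06). *Thrsp*, a lipogenic nuclear protein, was higher by 1.01 ± 0.06, the elongase *Elovl6* by 0.88 ± 0.12, the glucose-responsive factor *Mlxipl* by 0.56 ± 0.07 and ATP citrate lyase (*Acly*) by 0.50 ± 0.05. *Me1*, *Acss2* and *Gpam* followed with 0.18 to 0.38. Of the 9, *Elovl6* and *Gpam* exceeded 0 in SA alone. The list mean was 1.43 to 1.61 in SA and 0.89 to 0.90 in RA, with SA replicate 3 lowest in the node, as it was for the white adipocyte list. Whether these enzymes came from the fat cells was not tested. Under MAD scaling 5 of the 9 calls remained, and 4 in the fit of all 20 arrays.

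**Figure D3:**
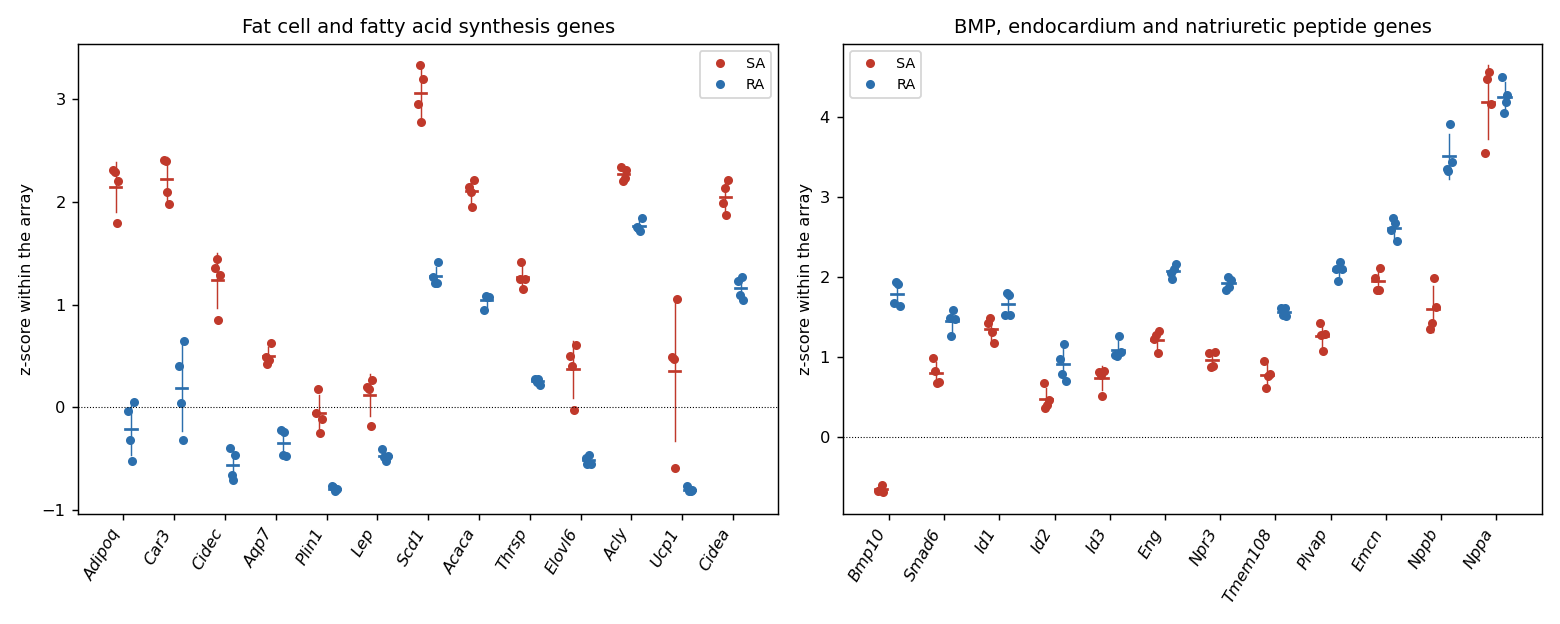
z-scores within the array of fat cell and fatty acid synthesis genes (left) and of BMP, endocardial and natriuretic peptide genes (right); points are arrays (4 SA in red, 4 RA in blue), short horizontal lines group means and vertical lines 1 SD. The fat genes lie higher in SA with SA replicate 3 at -0.59 for *Ucp1*, and the genes on the right lie lower in SA except *Nppa*, which overlaps.

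Brown fat genes did not follow as a group: 2 of 5 tested were higher and 2 lower. *Cidea*, a lipid droplet protein of brown fat, read 1.99, 2.14, 1.87 and 2.21 in SA and 1.23, 1.09, 1.27 and 1.04 in RA (difference 0.90 ± 0.08, adjusted p = 5.3e-05). It was not particular to SA, with means of 1.36 in the left and 1.92 in the right ventricle. *Ucp1*, the uncoupling protein that defines brown fat, read 0.49, 0.47, -0.59 and 1.05 in SA and -0.82 to -0.77 in RA (1.16 ± 0.26, adjusted p = 0.0124). SA replicate 3 was below 0 for it, and the call was lost under MAD scaling (0.055) and without SA replicates 1 and 2 (0.0721). *Ppargc1a*, which heart muscle also uses, and *Fabp5* were lower by 0.37 ± 0.08 and 0.76 ± 0.08.

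Other genes among the largest excesses are known from fat or liver metabolism. Haptoglobin (*Hp*), which binds free haemoglobin, read 2.16, 2.54, 1.95 and 1.94 in SA and 0.27, -0.22, -0.04 and 0.13 in RA (difference 2.11 ± 0.14, adjusted p = 4.43e-06). Adipogenin (*Adig*) was higher by 1.56 ± 0.08, cysteine dioxygenase (*Cdo1*) by 1.61 ± 0.09 and the cytochromes P450 *Cyp2b10* and *Cyp2e1* by 1.67 ± 0.08 and 1.46 ± 0.12. *Mup2*, a major urinary protein with near-identical relatives that a probe may not separate, was higher by 1.03 ± 0.04 with 0.23 to 0.26 in SA and -0.80 to -0.76 in RA. *Tmem45b*, a membrane protein, was second only to *Adipoq* among genes past the threshold. It read 1.83, 1.94, 1.55 and 1.57 in SA and -0.44, -0.69, -0.71 and -0.37 in RA (2.28 ± 0.11, adjusted p = 5.53e-07). *Tenm4*, a teneurin of cell adhesion, differed by 1.53 ± 0.12 and *Tmc7*, of a channel-like family, by 1.21 ± 0.06; neither region overlapped the other for these genes. *Tmc7* averaged as much in the right ventricle (1.12) as in SA (1.12).

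Smooth muscle genes were higher in SA in 7 of 11 tested and lower in none (8.32% and 8.28% of all tested genes). The median was 0.49 and the list mean 1.45 to 1.77 in SA against 0.95 to 1.04 in RA. *Actg2*, smooth muscle gamma actin, read 0.89, 1.76, 0.73 and 0.78 in SA and -0.42, -0.49, -0.14 and -0.42 in RA (difference 1.41 ± 0.20, adjusted p = 0.000727). *Myh11*, the smooth muscle myosin heavy chain, read 0.86, 1.44, 0.77 and 0.73 in SA and -0.06, -0.09, -0.26 and -0.07 in RA (1.07 ± 0.14, adjusted p = 0.000396). SA replicate 2 was the highest node array for both, and it was also the array highest in airway transcripts (list mean 1.96); their part in the result was not tested, and the count was 7 without SA replicates 1 and 2. *Mylk* (0.79 ± 0.11), *Acta2* (0.73 ± 0.16), *Tagln* (0.71 ± 0.08), *Lmod1* (0.49 ± 0.07) and *Aoc3* (0.39 ± 0.07) completed the group, and 4 of the 7 exceeded 0 in SA alone. *Acta2*, near the upper end of the scale at 3.47 to 4.04 in SA and 2.68 to 3.39 in RA, lost its call under MAD scaling (0.386). None of the 8 members with a promoter in the table held a CArG box, the serum response factor site, on either strand in the 250 bases before the start, against 1.62% of all promoters.

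Endothelial genes, and most of all those of the endocardium, were lower. Of 6 endocardial genes tested 5 were lower and none higher, against 8.28% and 8.32% of all tested genes. Their median was -0.63, with a list mean of 0.84 to 1.01 in SA and 1.49 to 1.57 in RA. *Npr3* read 1.05, 0.87, 0.89 and 1.06 in SA and 1.84, 2, 1.87 and 1.96 in RA (difference -0.95 ± 0.06, adjusted p = 4.9e-06). *Plvap*, of endothelial diaphragms, read 1.43, 1.27, 1.07 and 1.29 in SA and 2.10, 1.95, 2.19 and 2.10 in RA (-0.82 ± 0.08, adjusted p = 6.85e-05). *Tmem108* (-0.79 ± 0.07), *Cgnl1* (-0.47 ± 0.06) and von Willebrand factor (*Vwf*, -0.34 ± 0.09, with overlapping arrays) followed, while *Nfatc1*, a factor of valve endocardium, did not pass (adjusted p = 0.231).

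Of 12 blood endothelial genes 7 were lower and 1 higher, with a median of -0.29 (8.28% and 8.32% of all tested genes). Endomucin (*Emcn*) was lower by 0.67 ± 0.08, *Pecam1*, the junctional marker of all endothelium, by 0.52 ± 0.07, the angiopoietin receptor *Tek* by 0.48 ± 0.06 and VE-cadherin (*Cdh5*) by 0.25 ± 0.05. *Pecam1* had an adjusted p of 0.0666 under MAD scaling. *Robo4*, a guidance receptor of vessels, was the exception with 1.62 to 1.70 in SA and 1.16 to 1.34 in RA (0.38 ± 0.05, adjusted p = 0.000743). *Gpr182*, a chemokine-binding receptor of endothelium, was lower by 1.03 ± 0.08 outside these lists.

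Lymphatic genes were higher in 2 of 5 tested (8.32% of all tested genes were) and lower in none. *Ccl21a*, a chemokine of lymphatic vessels and lymphoid tissue with near-identical copies that a probe may not separate, read 1.77, 1.72, 1.90 and 1.52 in SA and 0.61, -0.07, -0.31 and 0.24 in RA (difference 1.61 ± 0.17, adjusted p = 0.000103). RA was its lowest region: it averaged 1.30 in the left atrium, 0.99 in the left and 1.31 in the right ventricle. Reelin (*Reln*), secreted by lymphatic endothelium, read 1.33, 1.01, 1.06 and 0.95 in SA and 0.05, -0.18, -0.33 and -0.16 in RA (1.24 ± 0.10, adjusted p = 1.55e-05). It averaged 0.28 in the left atrium, 0.21 in the left and 0.24 in the right ventricle. *Prox1* and *Pdpn*, which define lymphatic cells but are also found in muscle and mesothelium, overlapped (adjusted p = 0.662 and 0.604), as did *Lyve1* (0.192).

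Fibroblast genes went both ways, with 2 of 14 higher and 4 lower (8.32% and 8.28% of all tested genes). *Pi16*, of adventitial fibroblasts, read 2.54, 2.51, 2.74 and 2.65 in SA and 1.86, 1.30, 1.85 and 1.46 in RA (difference 0.99 ± 0.12, adjusted p = 0.000303, but 0.0538 under MAD scaling and 0.128 in the fit of all 20 arrays), and *Clec3b* was higher by 0.55 ± 0.06. Both were as high in the left atrium, with means of 2.58 for *Pi16* and 0.72 for *Clec3b* against 2.61 and 0.70 in SA. *Tcf21* (-0.59 ± 0.11), *Gsn* (-0.56 ± 0.12), *Vim* (-0.40 ± 0.09) and *Lum* (-0.30 ± 0.07) were lower. None of 11 collagen genes passed in all 8 arrays, but this rested on RA replicate 3. Its collagen mean was 1.58 against a lowest RA value of 0.88, it also stood high in *Saa3* (1.60, -0.66 to -0.50 on the other RA arrays), *Timp1* (2.52, 1.23 to 1.43) and elastin (*Eln*, 2, 0.42 to 0.79), and without it 7 of the 11 collagen genes were higher in SA. Of 5 cartilage and fibrous matrix genes 2 were lower: *Comp*, cartilage oligomeric matrix protein, with -0.25 to -0.08 in SA and 0.87 to 1.07 in RA (-1.11 ± 0.06, adjusted p = 1.4e-06), and *Cytl1* (-0.53 ± 0.12).

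Mesothelial genes were called lower in 1 of 10, near the 8.28% of all tested genes. This was *Gpm6a* (-0.42 ± 0.11), which missed the threshold without RA replicate 2 (0.07) or RA replicate 4 (0.0602). The list mean was -0.03 to 0.52 in SA and 0.36 to 0.69 in RA, with SA replicates 1 and 2 at the level of the atrium. *Upk3b*, a defining marker, read 1.80 and 1.79 on these and 1.02 and 1.15 on SA replicates 3 and 4, against 1.85 to 1.90 in RA. Without SA replicates 1 and 2, 5 of the 10 were lower.

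WNT genes were higher in 1 of 9 (*Rspo3*, a WNT amplifier, 0.32 ± 0.07) and lower in 3. The lower ones were the inhibitors *Sfrp2* (-0.49 ± 0.12) and *Sfrp1* (-0.22 ± 0.06), and *Dkk3*, which is related to WNT inhibitors. Over all tested genes 8.32% were higher and 8.28% lower, so that the 1 higher gene was near that share. *Sfrp1* lost its call without SA replicate 2 or 4 or RA replicate 1 or 3 (0.0626 to 0.0847). Axon guidance genes were lower in 4 of 7 tested and higher in none. *Unc5b*, a netrin receptor also found on endothelium, was lower by 0.60 ± 0.08, *Slit2* by 0.46 ± 0.06, neurturin (*Nrtn*), a trophic factor for parasympathetic neurons, by 0.38 ± 0.06 and *Nrp1* by 0.25 ± 0.06; *Nrp1* missed the threshold without RA replicate 4 (0.0513).

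Neuronal genes differed among the SA arrays more than between regions. None of 12 tested genes of sympathetic and cardiac neurons passed, although the median was 0.32, and 8 of the 12 exceeded 0 in SA alone. The list mean was 0.48 and 0.14 on SA replicates 1 and 2, -0.32 and -0.37 on SA replicates 3 and 4, and -0.53 to -0.14 in RA. *Stmn2*, a growth-associated protein of neurons, read 1.32, 0.87, 0.05 and 0.15 in SA and -0.37 to 0.26 in RA (adjusted p = 0.121), and *Npy* read 0.94, 0.80, -0.50 and -0.39 in SA and -0.73 to 0.05 in RA (0.288). *Dbh*, which makes noradrenaline and is also found in cardiac muscle, read 0.35 to 0.74 in SA and 0.55 to 0.85 in RA. *Th* and *Chat* stayed below the filter.

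Glial and pigment cell genes passed in both directions. Of 5 Schwann cell genes, myelin basic protein (*Mbp*) read 1.09, 1.26, 0.84 and 0.73 in SA and 0.31, 0.10, 0.02 and 0.18 in RA (difference 0.83 ± 0.11, adjusted p = 0.00053), but its probes disagreed, and with the mean of all its probes the adjusted p was 0.0893. *Gfra3*, a glial receptor of artemin, was higher by 0.46 ± 0.06 and *Mal* lower by 0.70 ± 0.08. Among 5 melanocyte genes 2 were higher and 3 lower. *Mlana*, a melanosome protein, read 1.03, 1.23, 0.98 and 1.12 in SA and 2.51, 2.41, 2.45 and 2.51 in RA (-1.38 ± 0.06, adjusted p = 5.53e-07). *Dct*, a pigment enzyme, went the opposite way with 1.27, 0.97, 1.16 and 0.87 in SA and -0.24, 0.19, -0.14 and -0.46 in RA (1.23 ± 0.13, adjusted p = 0.000116), and *Gpnmb* was higher by 0.66 ± 0.05 while *Mitf*, the lineage factor, was lower by 0.41 ± 0.06. The list means overlapped, 1.05 to 1.14 in SA and 1.05 to 1.20 in RA, although each of the 5 genes had non-overlapping arrays.

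*Cd207*, the Langerhans cell lectin, came next after *Bmp10* in the size of its deficit. It read 0.00, -0.29, 0.03 and 0.03 in SA and 1.96, 1.84, 2.29 and 1.94 in RA (difference -2.06 ± 0.10, adjusted p = 7.77e-07), and the left atrium averaged -0.59 ± 0.09. It was the 1 gene of 6 tested from dendritic cells and MHC class II that passed. *Vsig4*, a complement receptor of resident macrophages, read 1.21, 0.63, 0.94 and 1.06 in SA and 2.39, 2.31, 2.68 and 2.36 in RA (-1.48 ± 0.12, adjusted p = 2.15e-05), with 0.67 ± 0.33 in the left atrium. Of the other 9 macrophage genes tested only *C1qb* and *C1qc* passed (-0.28 ± 0.08 and -0.29 ± 0.08), and leaving out any 1 of several arrays ended both calls; *Cd163* overlapped (adjusted p = 0.919). *Cd79a* and *Cd79b*, the B and T lymphocyte genes tested, did not pass (adjusted p = 0.0758 and 0.143). Their list mean was 0.50 and 0.28 on SA replicates 1 and 2, which were also the highest in the neuronal list, against -0.48 and -0.50 on SA replicates 3 and 4 and -0.62 to -0.50 in RA. None of 7 thymus genes on the array exceeded 0. Outside the lists, *Enpp6*, a choline phosphodiesterase, was lower with 0.21 to 0.49 in SA and 2.08 to 2.24 in RA (-1.78 ± 0.07, adjusted p = 1.4e-07), and *Cemip2*, a hyaluronidase of the cell surface, was lower by 1.09 ± 0.05.

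Airway transcripts were highest on SA replicate 2. *Scgb1a1*, the club cell secretoglobin, read -0.49, 3.97, 0.93 and 0.72 in SA and -0.85 to -0.63 in RA (difference 2.01 ± 0.72, adjusted p = 0.0851). *Bpifa1*, an airway secretory protein, read -0.72, 3.10, 0.18 and 0.14 in SA and -0.77 to -0.67 in RA, and *Cyp2f2*, a club cell P450, read 0.13, 2.91, -0.02 and -0.02. SA replicate 2 was thus far above the others, although SA replicates 3 and 4 also lay above RA for *Scgb1a1* and *Bpifa1*, and its mean over the 8 lung and airway genes was 1.96, whereas the remaining SA arrays had -0.31 to 0.00 and the RA arrays -0.44 to -0.41. None of the 8 passed, and 7 of them exceeded 0 in SA alone. *Sftpa1*, *Sftpb* and *Sftpc*, which define the gas-exchanging part of the lung, stayed below 0 on all 8 arrays. Without SA replicate 2, 2 of the 8 were higher, and 4 without SA replicates 1 and 2. Without both, 3 of the study's transcription factors were higher and 11 other cardiac factors lower. In the same fit 8 white adipocyte, 8 fatty acid synthesis and 7 smooth muscle genes were higher and 5 endocardial genes lower. Calls in the list of pacemaker channels and related genes fell from 5 to 3.

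**Figure D4:**
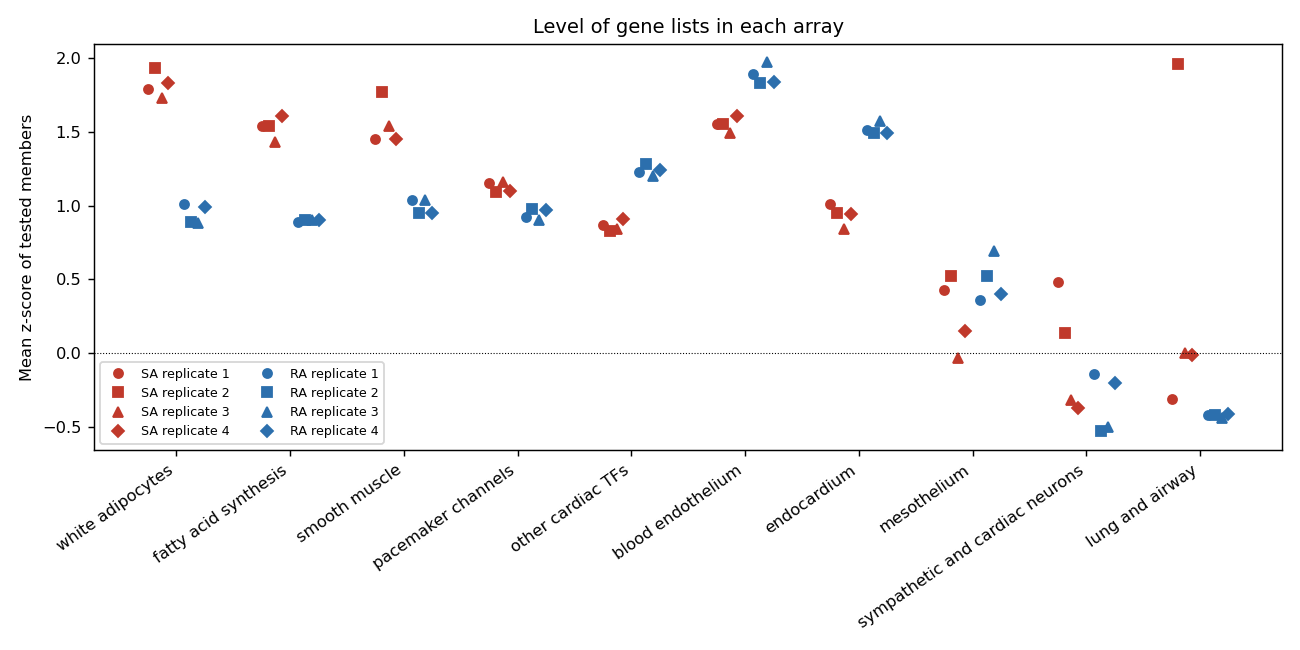
Mean z-score of the tested members of 10 gene lists (horizontal axis) on each of the 8 arrays (vertical axis); red symbols are SA and blue symbols RA arrays, with 1 symbol shape per replicate number, which does not pair arrays across regions. The fat, smooth muscle, transcription factor, endothelial and endocardial lists separate the regions, whereas the neuronal list is highest on SA replicates 1 and 2 and the airway list on SA replicate 2 (1.96).

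Signs of blood and of tissue handling were close. Neither of 2 red blood cell genes tested passed, and haemoglobin alpha (*Hba-a1*) read 2.73 to 3.66 in SA and 3.02 to 3.09 in RA (adjusted p = 0.565). Of 11 immediate early genes *Atf3* passed (0.44 ± 0.11, with overlapping arrays), and of 9 heat shock genes *Hspa1a* (0.40 ± 0.12); both lost their calls without any of several arrays. The list means of the immediate early genes were 1.12 to 1.30 in SA and 1.06 to 1.20 in RA, and those of the heat shock genes 2.26 to 2.42 and 2.27 to 2.32.

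**Figure D5:**
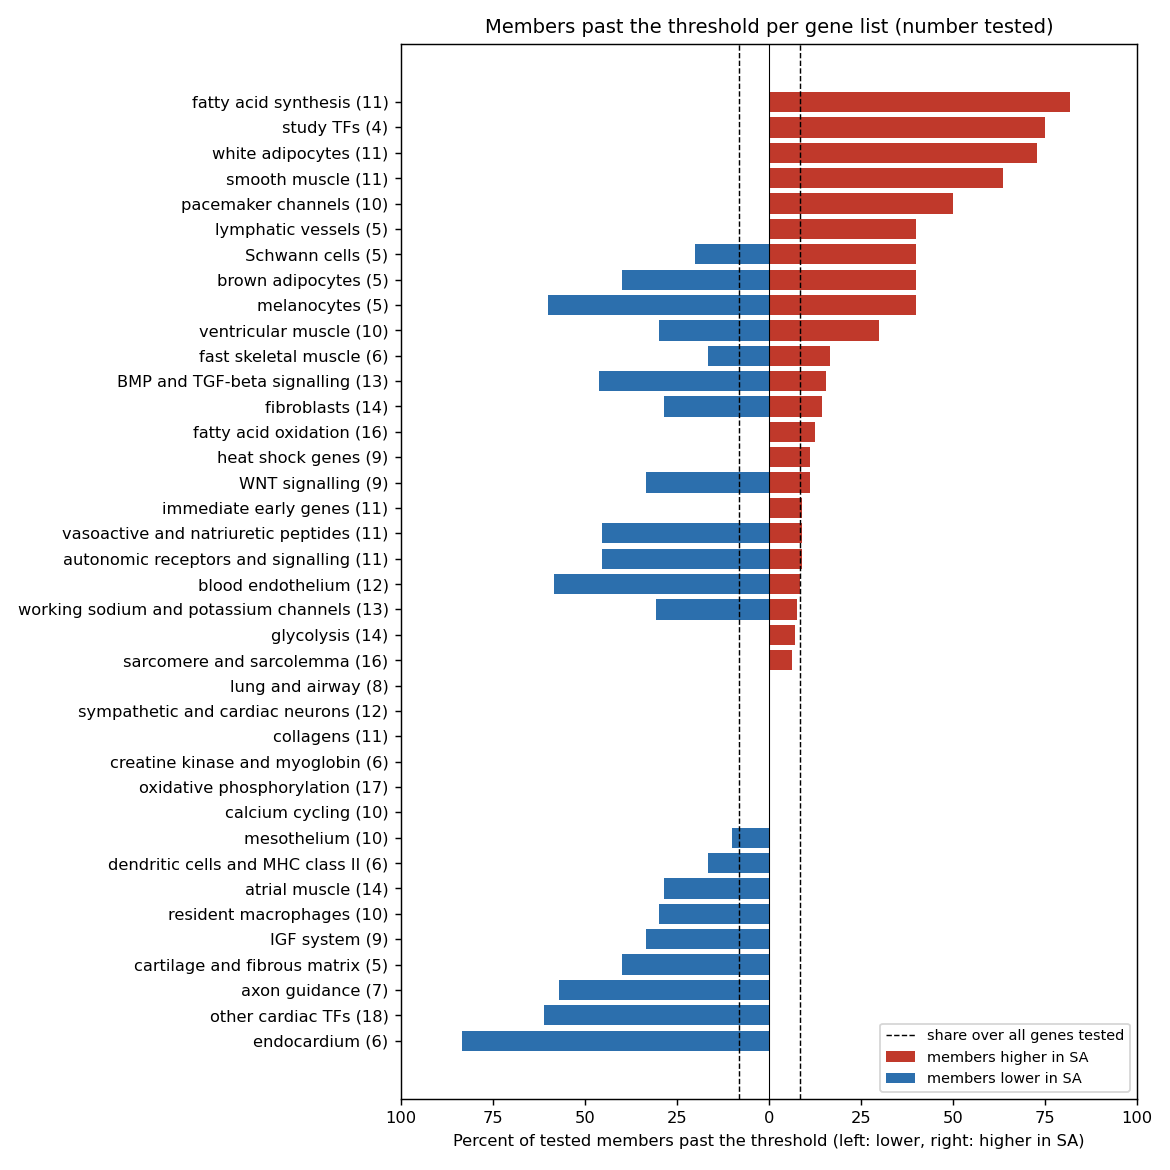
Percent of the tested members of each gene list that were higher in SA (red bars, to the right) or lower in SA (blue bars, to the left) at an adjusted p below 0.05 (limma), with the number tested in brackets; lists with fewer than 4 tested members are left out. Dashed lines mark the shares over all tested genes, 8.32% higher and 8.28% lower. Fatty acid synthesis lies at the top, followed by the study's transcription factors and white adipocytes, and endocardium lies at the bottom.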

How the data were processed

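Heart tissue from male C57/BL6 mice was measured on Illumina MouseRef-8 v2 BeadChips. Signals were extracted by the authors with BeadStudio and GenomeStudio 2011.1, per the labels and the submitters' processing notes. The deposited values were used unchanged: they are z-scores, a score with mean 0 and SD 1 over the 25697 probes of each array, and the scale behind them is not given in the sources used here. Of these probes 23978 named 1 gene through the platform annotation and 1719 named none. The 4 SA and 4 RA arrays were grouped by their source labels. The title of 1 right ventricular array names RA, while its source label and description name the right ventricle; it was kept as right ventricle and entered the ventricular means and the fits of 19 and 20 arrays, but not the SA and RA fit. Nothing in the labels says that arrays of a region came from separate animals, so p-values measure the spread between these arrays, and 4 arrays a region limit the precision.

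Each gene was represented by its brightest probe, judged by the mean of the 8 arrays (4777 genes had several), and 7310 of 16593 genes with a value above 0 on at least 1 array were fitted with limma 3.58.1 in R 4.3.3 (lmFit, eBayes, two-sided, Benjamini-Hochberg adjustment over all 7310 genes, threshold 0.05). Named genes were, for each direction, the 14 largest differences with non-overlapping arrays, the 5 smallest p-values, up to 4 called members per list by size of difference and the study's transcription factors, 106 in all. Further list members are named with their values, chosen after these were seen. The 41 gene lists and the members were chosen with earlier results of these data known. The T-box and GATA motifs were chosen after seeing the data. The study's array tests set LA, ventricle and SA against each other and left RA out.

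Promoter letters were searched in the 250 bases before the start, and 79 of the 106 named genes matched the RefSeq table. The fit was tested on simulated data with 200 changed genes among 7310: it recovered 56% of added differences of 0.25, 98% of 0.5, 100% of 1 and 86% of -0.5, with 14 false calls. No pair of arrays held identical values. Alternatives changed the arrays in the fit, the scaling, the filter, the probe rule, the moderation and the replicate block, and left out each array in turn.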

Additional observations from a re-analysis of the deposited data

Results flagged for a closer look

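In groups of 4 arrays, 1 array stood apart from the other 3 by Dixon's criterion at the 95% level for 16 of the 292 combinations of region with a named gene or list mean, and chance alone gives about 1 in 20. The list means so flagged were lung and airway genes on SA replicate 2 (1.96, against -0.31 to 0.00 on the other SA arrays), collagens on SA replicate 2 (1.18, against 1.29 to 1.31), melanocyte genes on SA replicate 1 (1.14, against 1.05 to 1.07) and BMP and TGF-beta genes on RA replicate 3 (1.29, against 1.08 to 1.11).

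Among single genes of the node, *Actg2* stood at 1.76 on SA replicate 2 (0.73 to 0.89 on the others), *Cd207* at -0.29 on SA replicate 2 (0.00 to 0.03) and *Gjd3* at -0.14 on SA replicate 4 (0.04 to 0.07). On SA replicate 1 *Dkk3* read 3.18 (3.52 to 3.54), *Ppargc1a* 1.21 (1.47 to 1.5), *Shox2* 1.22 (1.39 to 1.42) and *Slit2* -0.21 (-0.32 to -0.31). In RA, *Acaca* stood at 0.95 on replicate 1 (1.07 to 1.08) and *Cacna1g* at 0.13 on replicate 2 (0.01 to 0.03). RA replicate 3 was apart for *Atf3* (-0.05, against -0.58 to -0.50), *Myh11* (-0.26, against -0.09 to -0.06) and *Unc5b* (1.26, against 0.91 to 0.94). Of these genes, *Dkk3*, *Gjd3* and *Atf3* lost their calls without some 1 of the 8 arrays, and the others kept theirs.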

How the results depend on the processing

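With 1213 genes called (608 higher and 605 lower in SA), the fit of all 20 arrays gave 166 (105 and 61). That drop was not seen without left ventricle replicate 4, where the fit of 19 arrays gave 1366 (698 and 668). MAD scaling gave 419 (229 and 190), and why was not tested. The share of higher among called genes was 50.1%, and 63.3% in the fit of all 20 arrays. Counts stayed within 1.5 times in the fits of 19 and 12 arrays, with quantile normalization, no filter, a filter of at least 4 arrays, the mean of all probes and moderation with trend and robust settings, and without SA replicates 1 and 2 (977, an alternative chosen after seeing the data). Leaving out each array gave 907 to 1206 calls, 457 to 607 higher and 444 to 617 lower. The replicate numbers did not pair the arrays: same-numbered deviations correlated at -0.35 to -0.08, and no SA array correlated best with its own number. With the replicate block there were 792 calls, 412 higher and 380 lower. Genes called both here and under an alternative had the same direction. Of 104 named genes tested, 56 lost the call in the fit of all 20 arrays, 30 under MAD scaling and 11 with the block, and none reversed. z-scores near the top of an array limit what can be seen of the brightest muscle genes.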

Other observations

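Genes outside the lists varied between arrays of 1 region. *Cxcl13*, a chemokine of lymphoid tissue, read 1.65 on SA replicate 1 and -0.16 to 0.80 on the other SA arrays, and *Cartpt*, a neuropeptide, read 1.09 there and -0.49 to 0.71 on the others. *Ltf*, lactoferrin of secretory epithelia, read 3.44 on SA replicate 2 and -0.73 to 0.17 on the others. *Serpina3n*, an acute-phase inhibitor, read 2.56 on RA replicate 3 and 0.92 to 1.29 on the others. A deviation of more than 1 above the mean of the other 3 arrays was found for 21 genes on SA replicate 2, 8 on SA replicate 1 and 8 on RA replicate 3, and for at most 1 on each of the other 5 arrays.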
